A study of Homo sapiens with 12 samples.

Results

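The genes of 7 matrix metalloproteinases (MMP1, MMP2, MMP3, MMP7, MMP9, MMP10 and MMP14) and of 3 tissue inhibitors of metalloproteinases (TIMP1, TIMP2 and TIMP3) were followed through the mRNA-seq of glioblastoma cells with and without temozolomide (TMZ). These 10 genes were taken by symbol, matched to their Ensembl identifiers, from the 58174 genes of the deposited tables.

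U87 and U118 are established lines grown from human glioblastomas, and TMZ is an alkylating drug used against this tumor. The sample labels call the untreated cells of each line sensitive and the cells kept under 50 µM TMZ resistant. The study calls the first control cells and the second aggregation cells, because they grew as aggregates, and these names are used here. Each of the 4 groups (U87 control, U87 aggregation, U118 control and U118 aggregation) held 3 libraries, 12 in all. According to the methods of the study, the cells had been sorted for the lack of the surface markers CD133 and CD15 and were kept in DMEM/F12 medium with serum and BMP2, a differentiation factor, which control and aggregation cells share. The labels do not say whether the 3 libraries of a group came from separate cultures, so that p-values measure only the spread between these libraries, which may be technical. The study reports that the aggregates arose from a rare subset of surviving cells, weeks after treatment began. Its results text places part of this time after the TMZ treatment period, whereas a figure legend counts it as treatment. TMZ exposure, the time since it began or ended, survival of this subset and growth as aggregates coincide in the aggregation groups and cannot be told apart.

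Matrix metalloproteinases are zinc-dependent endopeptidases that cut collagens, fibronectin, laminins and other proteins outside the cell. Most are secreted as inactive proenzymes and need a proteolytic cut to become active, whereas MMP14 is anchored in the cell membrane and turns on proMMP2 in a complex that contains TIMP2. TIMPs block the active site of the enzymes, and the gelatinases, MMP14 and the TIMPs are well known from the invasion of glioma cells into brain tissue.

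Expression was given as TPM, a share of all transcripts that corrects for their length. Read counts cannot be had from it, depth is therefore unknown, and the error of a value is the spread between libraries. From 13270 to 15290 genes reached 1 TPM per library. The mitochondrial share of the TPM ran from 7.42% to 29.9% over the 12 libraries and was higher in U87 aggregation (22.2% to 23.7%) than in U87 control libraries (12.9% to 16.9%). U118 aggregation replicate 1 stood apart from replicates 2 and 3, with 15193 genes at 1 TPM against 13270 and 13545 and a mitochondrial share of 13.2% against 29.9% and 26.1%. It was also the highest of its group for 8 of the 10 genes studied. Across 16382 genes, all 3 U118 aggregation libraries were nearer to the U87 libraries (Spearman's rho 0.895 to 0.913) than to the U118 control libraries (0.808 to 0.839). Each U118 difference below therefore compares the libraries as labelled. Of 9 glial markers, AQP4 was listed at 0 in every library and SOX2 in every U87 library, while the summed TPM of the list lay between 4800.1 and 7741. VIM, at 4425.3 to 7148.7 TPM, made up most of this sum in every library, and CD44 was at 311 to 868 TPM. NES was at 5.76 to 24.1 TPM, and OLIG2 and FABP7 reached no more than 4.45 and 3.04 TPM. GFAP, S100B and SOX2 stayed below 1 TPM in all libraries. The summed markers stayed at or below 17.3 TPM for leukocytes (8 genes), 4.66 for endothelial cells (5 genes), 2.38 for epithelial cells (4 genes) and 15.9 for neurons (4 genes). The 8 mesenchymal markers summed to 240.4 to 243 TPM in U87 control, 454 to 540.1 in U87 aggregation, 1240.2 to 1638 in U118 control and 301 to 674 in U118 aggregation libraries, in the direction of MMP14 in both lines, and their part in the results was not tested.

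The members differ in how their genes start. Of the 10 genes, 5 had an entry in the RefSeq promoter table (MMP7, MMP10, MMP14, TIMP1 and TIMP3), and the 250 bases before the RefSeq start (GRCh38.p14) were read on the strand of the gene. Those of MMP7 (chr11:102530748-102530997, minus strand), MMP10 (chr11:102780629-102780878, minus strand) and TIMP3 (chr22:32801455-32801704, plus strand) are printed because they show the contrast between AT-rich starts with a TATA box and a GC-rich start. Capitals mark the matches, on either strand, to the AP-1 element TGANTCA, the TATA box TATAAA, the ETS core AGGAAG and the GC box GGGCGG.
MMP7: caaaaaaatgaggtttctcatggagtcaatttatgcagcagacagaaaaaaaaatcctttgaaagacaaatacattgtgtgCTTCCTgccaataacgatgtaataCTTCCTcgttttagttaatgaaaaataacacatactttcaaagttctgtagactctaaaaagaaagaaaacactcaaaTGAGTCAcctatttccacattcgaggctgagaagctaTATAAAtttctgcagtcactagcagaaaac
MMP10: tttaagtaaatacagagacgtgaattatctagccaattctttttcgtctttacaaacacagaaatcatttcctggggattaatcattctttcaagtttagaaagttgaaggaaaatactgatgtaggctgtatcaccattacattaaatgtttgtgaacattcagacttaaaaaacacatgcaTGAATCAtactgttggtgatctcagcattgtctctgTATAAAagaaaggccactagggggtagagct
TIMP3: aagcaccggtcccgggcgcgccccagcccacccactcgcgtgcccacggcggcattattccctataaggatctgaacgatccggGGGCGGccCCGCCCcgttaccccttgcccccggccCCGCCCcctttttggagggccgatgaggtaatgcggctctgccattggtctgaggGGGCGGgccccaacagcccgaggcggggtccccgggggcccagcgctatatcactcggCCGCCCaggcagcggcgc
The 250 bases held 33.6% G and C in MMP7 and 34.4% in MMP10, against 56.8% in MMP14, 64.8% in TIMP1, 72.4% in TIMP3 and a median of 58% over 35116 promoters. An AP-1 element lay at bases -67 to -61 in both MMP7 (TGAGTCA) and MMP10 (TGAATCA), a motif that 6.57% of all promoters of this length hold. A TATA box, present in 10.7% of promoters, lay at -30 to -25 in MMP7 and at -31 to -26 in MMP10. GC boxes, present in 42.6% of promoters, numbered 5 in TIMP3, 2 in TIMP1 and 1 in MMP14, with no match in MMP7 or MMP10. The ETS core, found in 28.7% of promoters, matched 2 times in MMP7 and 1 time in TIMP1. These are matches of letters and say nothing of binding.

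Aggregation cells were set against control cells of the same line with limma on log2(TPM + 1), using those genes that reached 1 TPM in 3 or more of the line's libraries. To be called, a gene needed a Benjamini-Hochberg adjusted p below 0.05 and a difference of 1 or more on the log2 scale. All adjusted p-values below come from limma and are adjusted over every gene tested. On this scale the change of genes at low TPM is understated. Over all genes the median difference was -0.24 in U87 and -0.52 in U118, and median-ratio scaling of the libraries moved these medians to -4.7e-05 and -0.06, so that the position of a gene relative to the median is given where it alters the reading.

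MMP1 (ENSG00000196611, chromosome 11, 102789920 to 102798160, minus strand, GRCh38), the interstitial collagenase that cuts fibrillar collagen, showed the largest change of the 10 genes. In U118 control libraries it stood at 809, 681 and 821 TPM. In the U118 aggregation libraries it was at 5.05, 1.28 and 1.64 TPM. Every aggregation library thus lay far below every control library, and the difference was larger than the spread between libraries (log2 fold change -7.86, SE 0.35, adjusted p = 6.87e-07), at -8.29 without U118 aggregation replicate 1. In U87 it was low throughout, at 2.95, 2.69 and 4.08 TPM in control and 2.05, 2.004 and 2.49 TPM in aggregation cells. The U87 groups did not overlap, but the difference did not pass the test (-0.40, 95% interval -0.81 to 0.01, adjusted p = 0.107). MMP1 separated the control cells of the lines 238-fold (log2 difference 7.52, SE 0.30, adjusted p = 7.84e-10). In the aggregation cells of the lines, the difference was 0.06 (95% interval -0.60 to 0.73, adjusted p = 0.915).

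MMP2 (ENSG00000087245, chromosome 16, 55389700 to 55506691, plus strand), or gelatinase A, which degrades denatured collagen and collagen IV of basement membranes, was the most abundant of the 7 proteases in both U87 groups and in U118 aggregation cells. In U87 it was at 2730.4, 2539.8 and 2616 TPM in control and 4991, 4482 and 4515 TPM in aggregation cells. All 3 aggregation libraries were higher, by 1.77-fold in the means. The change passed the p threshold and not the fold limit (0.83, SE 0.06, adjusted p = 0.000199), and it stood 1.07 above the median of all genes. In U118 the control libraries held 973, 1197 and 959 TPM and the aggregation libraries 1450.2, 1209.5 and 1199 TPM. These groups were adjacent without overlap, with a difference of 0.30 (95% interval -0.20 to 0.81, adjusted p = 0.277) that was 0.82 under median-ratio scaling (adjusted p = 0.0172), under the fold limit. MMP2 was lower in U118 than in U87 in both states, by 1.34 on the log2 scale in control cells (adjusted p = 7.93e-06) and by 1.86 in aggregation cells (adjusted p = 1.57e-06).

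MMP9 (ENSG00000100985, chromosome 20, 46008908 to 46016561, plus strand), gelatinase B, was nearly undetected. It was listed at 0 or at no more than 0.0436 TPM in the 6 U87 libraries and at 0.0371, 0 and 0 TPM in U118 control cells. The U118 aggregation libraries were all higher, at 0.739, 0.771 and 0.353 TPM, and remained below 1 TPM. MMP9 therefore did not pass the filter in either line. Without the filter, its U118 difference was 0.67 (SE 0.12, adjusted p = 0.0113), below the fold limit. Its exons share 430 bases with the antisense gene SLC12A5-AS1, at 0.0881 to 1.18 TPM, and whether the counting used strand is not given in the sources used here, so that reads of the pair cannot be told apart.

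MMP3 (ENSG00000149968, chromosome 11, 102835801 to 102843803, minus strand), stromelysin 1, which cuts a wide range of matrix proteins and activates other proMMPs, followed MMP1 in U118 and not in level. The U118 control libraries held 1728, 1637 and 1545 TPM, more than any other of the 10 genes in these cells. The U118 aggregation libraries held 37.3, 22.4 and 22.9 TPM. This is a 59.5-fold fall without overlap (-5.88, SE 0.24, adjusted p = 5.11e-07). In U87 MMP3 was at 241, 210.1 and 228 TPM in control and 246, 232 and 258 TPM in aggregation cells. These groups overlapped (0.12, 95% interval -0.07 to 0.30, adjusted p = 0.276). MMP3 was thus higher in U118 than in U87 among control cells (2.85, adjusted p = 3.73e-08) and 8.92-fold lower among aggregation cells (-3.15, adjusted p = 7.56e-08).

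MMP10 (ENSG00000166670, chromosome 11, 102770503 to 102780628, minus strand), stromelysin 2 and the closest relative of MMP3, stayed below 1 TPM in every library. In U87 it lay between 0.0766 and 0.244 TPM in both groups. In U118 it was at 0.774, 0.595 and 0.689 TPM in control and at 0.338, 0 and 0.0393 TPM in aggregation cells. All 3 U118 aggregation libraries were lower. MMP10 did not pass the filter, and without it the U118 difference was -0.59 (SE 0.13, adjusted p = 0.0265). Of the stretches of 31 bases in its transcripts, 7.12% also occur in MMP3, which was far more abundant, so that its low values are uncertain.

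MMP7 (ENSG00000137673, chromosome 11, 102520508 to 102530753, minus strand), matrilysin, a small protease without the hemopexin domain of the others, was the gene of the 10 that was called higher in both lines. In U87 it was at 0, 0.619 and 0.431 TPM in control and 2.20, 1.84 and 1.26 TPM in aggregation cells. In U118 it was at 0.158, 0.131 and 0.225 TPM in control and 2.41, 1.15 and 1.62 TPM in aggregation cells. Aggregation libraries were higher than all control libraries in both lines, from and to low levels. The differences were 1.05 in U87 (SE 0.23, adjusted p = 0.0104) and 1.19 in U118 (SE 0.20, adjusted p = 0.00128). The difference between the lines in this change was 0.14 (95% interval -0.51 to 0.80, adjusted p = 0.74). In each line MMP7 passed the filter only through its aggregation libraries, so that a rise was the only change that could be called. Without U87 control replicate 1, where it was listed at 0, the U87 difference was 0.85, under the fold limit.

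MMP14 (ENSG00000157227, chromosome 14, 22836557 to 22849027, plus strand), the membrane-type protease that activates proMMP2, changed in opposite directions in the lines. In U87 it rose from 239.6, 214 and 202 TPM in control to 608, 547 and 604 TPM in aggregation cells, 2.68-fold in the means. This rise was called (1.42, SE 0.08, adjusted p = 8.53e-05). In U118 it was at 646, 730.1 and 655 TPM in control and 430.1, 336 and 331 TPM in aggregation cells, without overlap. This difference passed the p threshold and not the fold limit (-0.90, SE 0.21, adjusted p = 0.00728), and it lay 0.37 below the median of all genes. Median-ratio scaling reduced it to -0.38 (adjusted p = 0.137), and leaving out U118 aggregation replicate 1 gave -1.02 (adjusted p = 0.00138), past both limits. The test of the difference between the lines gave -2.32 (SE 0.20, adjusted p = 1.54e-06).

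TIMP1 (ENSG00000102265, chromosome X, 47582313 to 47586789, plus strand), a secreted inhibitor of most MMPs but a weak one of MMP14, was the most abundant inhibitor in all 4 groups. In U87 it was at 534, 476 and 504 TPM in control and 1112, 1272 and 1141 TPM in aggregation cells. Every aggregation library was above every control library, and the rise was called (1.22, SE 0.08, adjusted p = 0.000107). In U118 it was at 737, 822 and 679 TPM in control and 669, 636 and 593 TPM in aggregation cells. These groups were adjacent and did not overlap, with a difference of -0.23 (95% interval -0.70 to 0.23, adjusted p = 0.359) that turned to 0.28 under median-ratio scaling (adjusted p = 0.321). The change differed between the lines by -1.45 (SE 0.18, adjusted p = 4.92e-05).

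TIMP2 (ENSG00000035862, chromosome 17, 78852977 to 78925387, minus strand), which inhibits MMPs and also bridges proMMP2 to MMP14, varied most within groups among the abundant genes. U87 control libraries were close together at 189, 179 and 185 TPM, whereas U87 aggregation libraries were at 77.6, 212 and 59.5 TPM. U118 control libraries were at 248, 253 and 84.9 TPM and U118 aggregation libraries at 51.5, 113 and 41.5 TPM. The highest library was 3.57 times the lowest in U87 aggregation, 2.98 times in U118 control and 2.73 times in U118 aggregation cells, and 1.05 times in U87 control cells. The groups overlapped in both lines. In U118 the difference was called lower (-1.47, SE 0.48, adjusted p = 0.0307), and the call was lost under median-ratio scaling (-0.96, adjusted p = 0.162), without the filter (adjusted p = 0.121) and without U118 control replicate 1 or 2 or U118 aggregation replicate 1 or 3 (adjusted p = 0.0794, 0.105, 0.0685 and 0.0798). In U87 the difference was -0.89 (95% interval -1.90 to 0.13, adjusted p = 0.144) with all libraries and -1.43 (adjusted p = 0.00173) without U87 aggregation replicate 2. Its exons share 198 bases with CEP295NL, which was at 0.115 to 0.741 TPM.

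TIMP3 (ENSG00000100234, chromosome 22, 32801701 to 32863043, plus strand), the inhibitor that binds the matrix and also blocks ADAM and ADAMTS proteases, was a gene of U118 in these data. U118 control libraries held 60.1, 56.8 and 64.6 TPM and U118 aggregation libraries 13.2, 3.597 and 3.34 TPM. Each aggregation library was far lower (-3.23, SE 0.42, adjusted p = 0.000305), and without U118 aggregation replicate 1 the difference was -3.78. In U87 TIMP3 was at 0.326, 0.388 and 0.228 TPM in control and 0.0874, 0.103 and 0.0240 TPM in aggregation cells, under the filter. Without the filter, the U87 difference was -0.29 (SE 0.06, adjusted p = 0.0286). TIMP3 was higher in U118 than in U87 by 5.55 on the log2 scale among control cells (adjusted p = 5.06e-08) and by 2.62 among aggregation cells (adjusted p = 0.000145), or 2.06 without U118 aggregation replicate 1. Since all U87 libraries were near 0, these differences depend on the pseudocount, and with 0.1 in place of 1 they were 7.21 and 5.04.

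**Figure D1:**
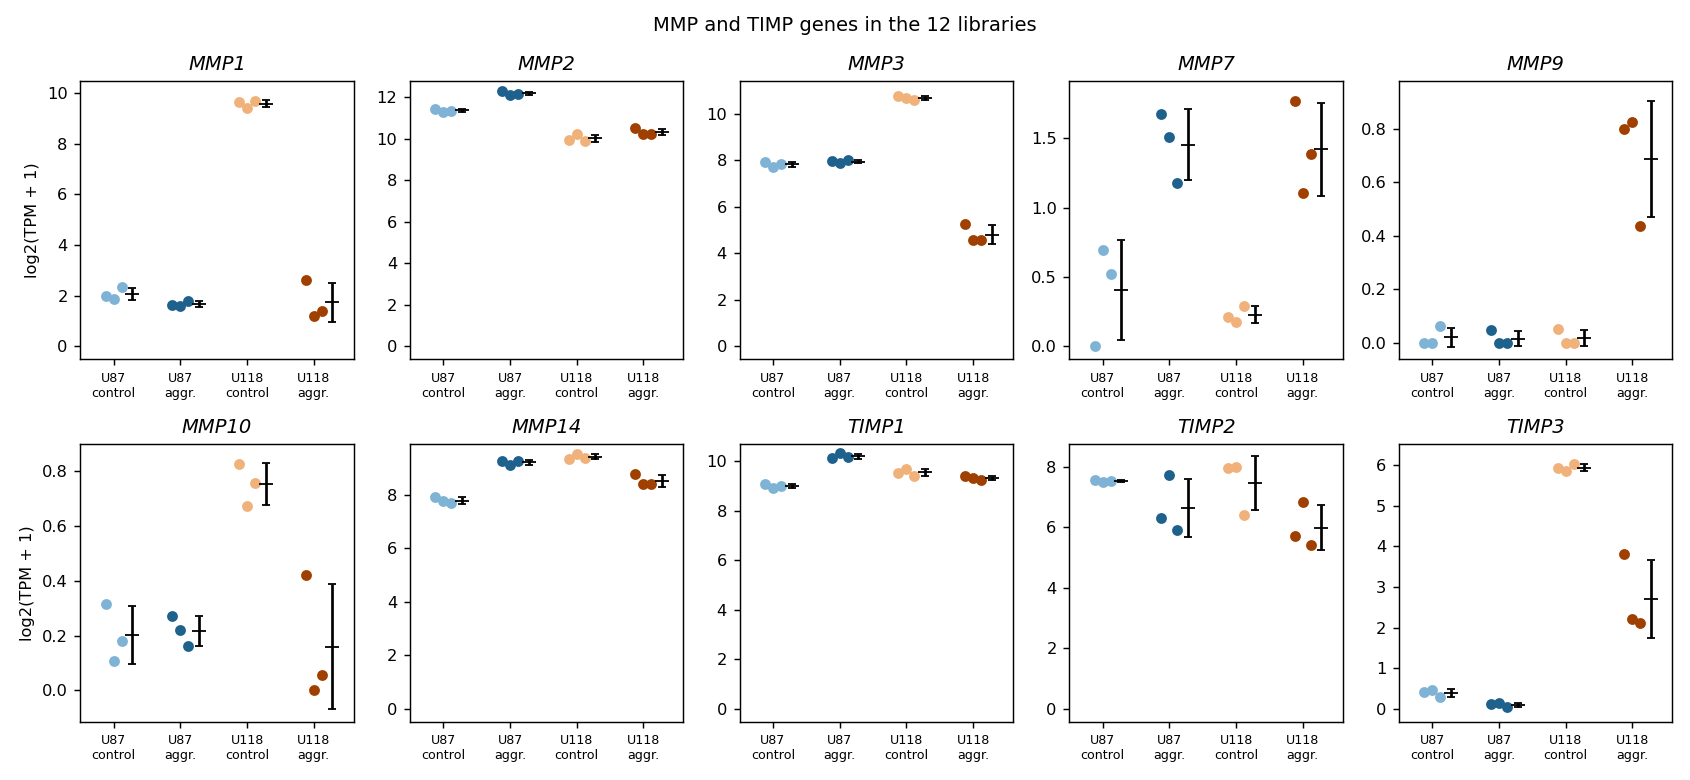
Expression of each of the 10 genes as log2(TPM + 1), 1 point per library, with the mean and SD of the 3 libraries of a group in black; the vertical axes differ between panels and aggr. stands for aggregation. MMP1, MMP3 and TIMP3 are high in U118 control libraries and low in U118 aggregation libraries, MMP14 and TIMP1 are higher in U87 aggregation than in U87 control libraries, and the TIMP2 points of a group spread widely outside U87 control cells.

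In U87, 7 of the 10 genes passed the filter, and 3 were called higher (MMP7, MMP14 and TIMP1) and 0 lower. Of all 13845 genes tested in U87, 10.8% were called, 3.03% higher and 7.79% lower. The groups of 5 of the 7 genes did not overlap, as for 53.4% of all genes. The median of the 7 was 0.83, against -0.24 over all genes. Under median-ratio scaling MMP2 passed the fold limit as well (1.10, adjusted p = 0.000313), and at this scaling the share of higher genes among all U87 calls went from 28% to 56.6%.

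In U118, 8 genes passed the filter. Of these, MMP7 was called higher and 4 lower (MMP1, MMP3, TIMP2 and TIMP3). Of all 15527 genes tested in U118, 35.3% were called, 8.64% higher and 26.6% lower, and the groups did not overlap for 58.6% of genes and for 7 of the 8. The median of the 8 was -1.18, against -0.52 over all genes. Median-ratio scaling took the share of higher genes among all U118 calls from 24.5% to 51.6%.

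**Figure D2:**
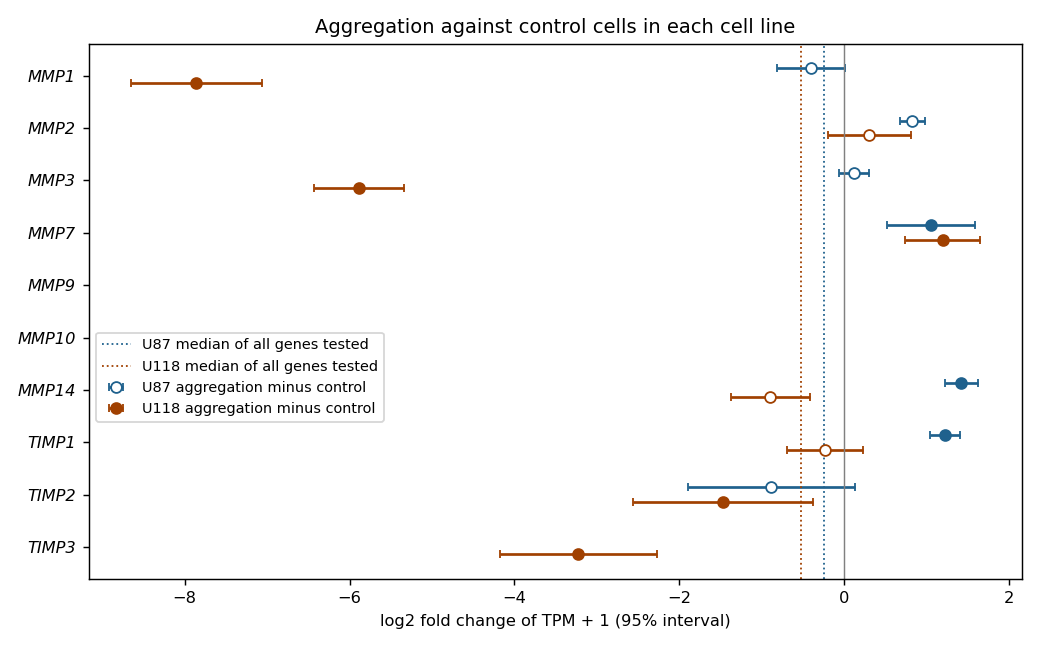
Log2 fold change of TPM + 1, aggregation minus control, for each gene in U87 (blue) and U118 (brown), with 95% intervals from limma; filled points were called, open points were not, and dotted lines mark the median of all genes tested (-0.24 and -0.52). MMP9 and MMP10 in both lines and TIMP3 in U87 did not pass the filter and have no point. MMP1 at -7.86 and MMP3 at -5.88 lie far from the other points, and MMP14 and TIMP1 lie to the right in U87 only.

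The difference between the lines in the change from control to aggregation cells was tested as an interaction over all 12 libraries. Of 8 genes tested, 5 were called, each with the lower value in U118: MMP1 (-7.45, adjusted p = 4.46e-08), MMP3 (-6.00, adjusted p = 3.6e-09), TIMP3 (-2.93, adjusted p = 0.000548), MMP14 and TIMP1. TIMP3 passed the filter only through U118, its low U87 levels compress any U87 change on this scale, and with a pseudocount of 0.1 its interaction was -2.17 (adjusted p = 0.0203). Over all 16382 genes, 30.5% were called, 12% with a higher and 18.5% with a lower value in U118. For TIMP2 the interaction was -0.59 with a wide interval (-2.16 to 0.99), so that a difference of either sign could not be detected at this spread. For MMP2 it was -0.52 (95% interval -0.97 to -0.07, adjusted p = 0.0667).

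The lines were also set side by side within each state, although cell line and deposited table cannot be told apart. Among control cells, MMP1, MMP3, MMP14 (1.63, adjusted p = 8.72e-07) and TIMP3 were called higher in U118 and MMP2 was called lower, 5 of 8, against 36.6% of all genes (25.6% higher and 11% lower). Among aggregation cells, TIMP3 was called higher and MMP2 and MMP3 lower in U118, 3 of 8, against 14.4% of all genes (8.79% higher and 5.59% lower). TIMP3 passed the filter only through U118, so that a higher value in U118 was the only call it could give here. The groups did not overlap for 6 of the 8 genes in control cells and 5 of the 8 in aggregation cells, against 66.8% and 44.8% of all genes. MMP14 (-0.69, adjusted p = 0.00281) and TIMP1 (-0.89, adjusted p = 0.000259) were lower in U118 aggregation than in U87 aggregation cells without reaching the fold limit. These comparisons use the same libraries as those within the lines and do not add independent evidence.

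The order of the genes by level differed between the groups. In U87 control cells MMP2 (2629 ± 96.0 TPM, SD, n = 3) was followed by TIMP1 (505 ± 29.3), MMP3 (227 ± 15.6), MMP14 (219 ± 19.0) and TIMP2 (185 ± 4.79), where MMP3 and MMP14 were within their spread. In U87 aggregation cells the order was MMP2 (4662 ± 285), TIMP1 (1175 ± 85.5), MMP14 (587 ± 34.2), MMP3 (245 ± 12.8) and TIMP2 (116 ± 83.6). In U118 control cells MMP3 (1637 ± 91.4) came first, then MMP2 (1043 ± 134), MMP1 (771 ± 77.5), TIMP1 (746 ± 71.9) and MMP14 (677 ± 45.9), the last 3 within their spread, before TIMP2 (195 ± 95.7) and TIMP3 (60.5 ± 3.92). In U118 aggregation cells MMP2 (1286 ± 142) was again first, followed by TIMP1 (633 ± 37.9), MMP14 (366 ± 55.7), TIMP2 (68.7 ± 38.8) and MMP3 (27.5 ± 8.44).

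Summed over the 7 proteases, expression was 3078 ± 126 TPM (SD, n = 3) in U87 control, 5498 ± 309 in U87 aggregation, 4128 ± 134 in U118 control and 1685 ± 209 in U118 aggregation cells. The sum of the 3 inhibitors was 689.6 ± 34.0, 1292 ± 167, 1002 ± 156 and 708 ± 61.4 TPM in the same order. Both sums were higher in aggregation than in control cells in U87 and lower in U118. They were not adjusted for the median change of all genes, which was -0.52 on the log2 scale in U118. TIMP1, the largest part of the inhibitor sum, turned to 0.28 in U118 under median-ratio scaling. Whether the lower inhibitor sum in U118 holds under this scaling was not tested. The ratio of the sums was 4.46 ± 0.0544, 4.32 ± 0.701, 4.18 ± 0.555 and 2.38 ± 0.274, which puts U118 aggregation cells below the other groups. TIMP4, an inhibitor outside the 10 genes, is left out here. With it the inhibitor sum was 825 ± 33.3, 1366 ± 169, 1009 ± 157 and 742 ± 62.0 TPM in the same order. The ratio to this larger sum was not taken, so that the ratios given hold for the 3 inhibitors only. MMP2 made up 85.4% ± 0.415 of the protease sum in U87 control, 84.8% ± 0.762 in U87 aggregation, 25.2% ± 2.59 in U118 control and 76.4% ± 0.988 in U118 aggregation cells. MMP3 took 39.6% ± 1.68 of it in U118 control and 1.61% ± 0.282 in U118 aggregation cells. The ratio of MMP14 to TIMP2, the partners in the activation of proMMP2, was 1.27, 1.19 and 1.09 in U87 control libraries and 7.84, 2.58 and 10.2 in U87 aggregation libraries. In U118 it was 2.61, 2.88 and 7.72 in control and 8.36, 2.97 and 7.98 in aggregation libraries, so that the U118 groups overlapped and the U87 groups did not. These sums and ratios were described without a test, since 3 libraries against 3 cannot give an exact two-sided p below 0.1.

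**Figure D3:**
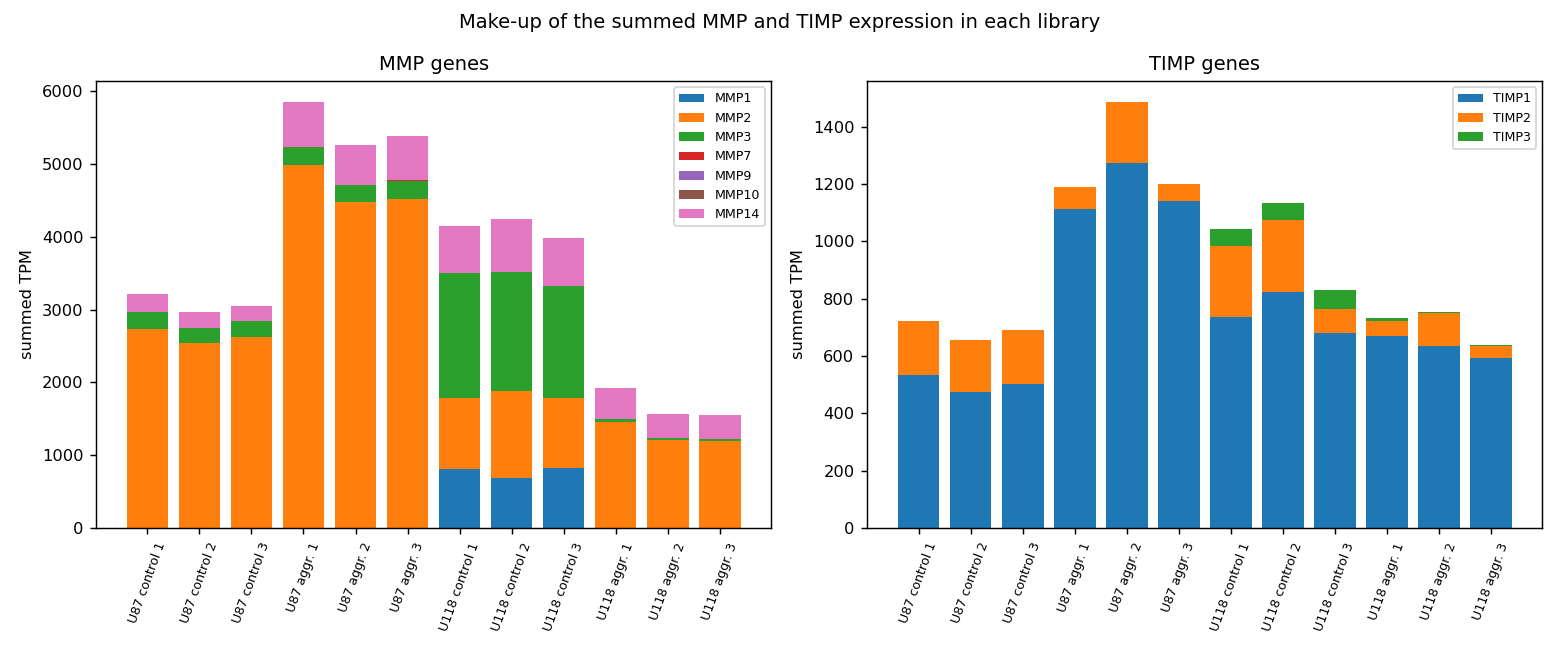
Stacked TPM of the 7 MMP genes (left) and the 3 TIMP genes (right) in each of the 12 libraries; each bar starts at 0 and colors mark the genes. MMP2 fills most of the bar in all libraries except U118 control, where MMP3 is the largest part and MMP1 and MMP14 are also large. TIMP1 forms the largest part of every TIMP bar.

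MMP1, MMP3, MMP7 and MMP10 lie in the MMP gene cluster at 11q22. The other MMP genes of the cluster, MMP8, MMP12, MMP13, MMP20 and MMP27, did not pass the filter in either line, and the highest of their group means was 0.486 TPM, for MMP12 in U118 control cells. The 6 flanking genes that are no MMP genes (YAP1, BIRC2, BIRC3, TMEM123, DCUN1D5 and DYNC2H1) were all called higher in U118 control than in U87 control cells, with a median of 2.47 against 0.38 over all genes, of which 25.6% were called higher. BIRC3 was at no more than 0.0943 TPM in the U87 libraries. It passed the filter over both lines only through U118, so that a higher value in U118 was its only possible call. In U118, 4 of the 6 were called lower in aggregation cells (YAP1, BIRC2, TMEM123 and DYNC2H1), with a median of -2.21, against 26.6% of all genes called lower. In U87, 0 of the 4 tested were called, against 7.79% of all genes called lower. All 4 were nonetheless lower in U87 aggregation cells, with a median of -0.63 against -0.24 over all genes. DYNC2H1 passed the U118 filter only through its control libraries. YAP1, the Hippo pathway coactivator, was at 160, 136 and 130 TPM in U118 control and at 44.1, 16.8 and 21.7 TPM in U118 aggregation cells. In U87 it was at 18.3, 32.5 and 21.6 TPM in control and 15.5, 14.1 and 13.9 TPM in aggregation cells. The 4 flanking genes called in U118 had the direction of MMP1 and MMP3, whereas MMP7, which lies between TMEM123 and MMP10, was called higher. MMP7 passed the filter only through its aggregation libraries, so that a rise was its only possible call.

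**Figure D4:**
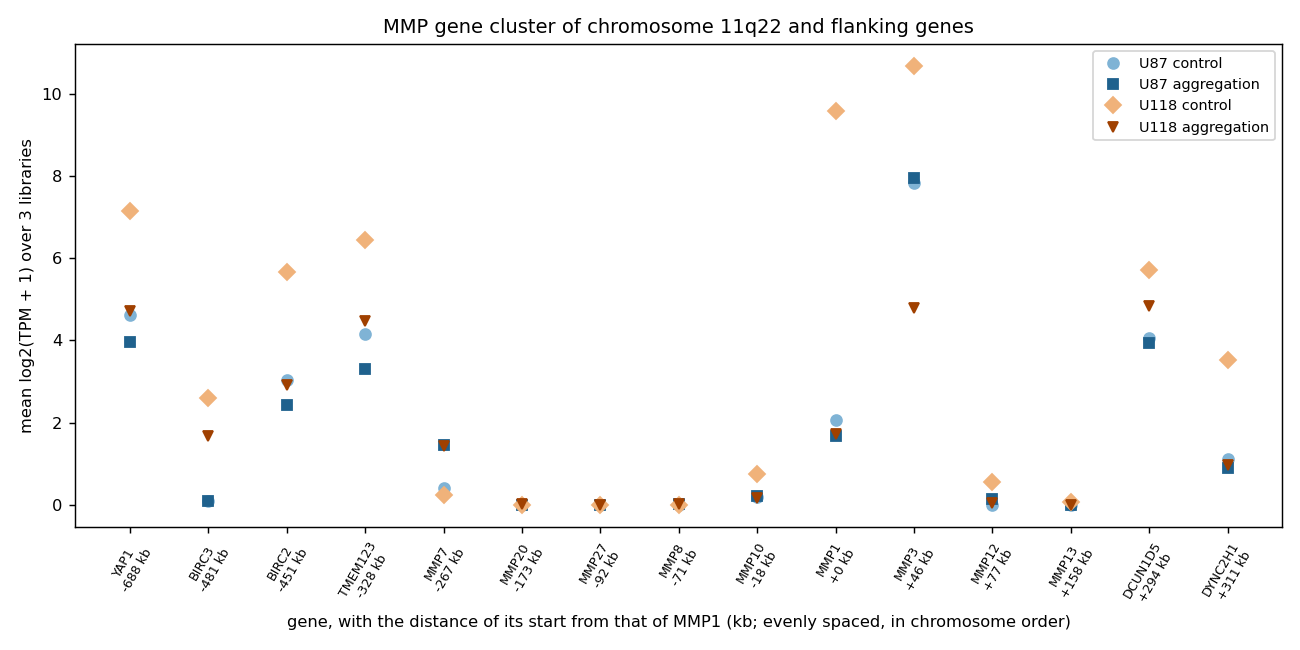
Mean log2(TPM + 1) of the 3 libraries of each group for the genes of the 11q22 MMP cluster and its flanks, in chromosome order and evenly spaced; labels give the distance of each gene start from that of MMP1 in kb. In the U118 control group (orange diamonds) the flanking genes, MMP1 and MMP3 lie above the other 3 groups, and for MMP7 both aggregation groups lie above both control groups.

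Among the other MMP and TIMP genes, 3 further membrane-type MMPs and 2 others passed the filter. MMP15 was called higher in U87, where it went from 7.05 ± 0.649 to 16.5 ± 1.25 TPM (SD, n = 3; 1.12, adjusted p = 0.00093), and was lower without reaching the fold limit in U118 (-0.96, adjusted p = 0.0066), as MMP14 was. MMP16 was called lower in U118, from 11.7 ± 0.455 to 2.45 ± 1.17 TPM (-1.93, adjusted p = 0.000516), and MMP17 was called in neither line. MMP19 was called higher in U118, from 3.995 ± 0.505 to 14.8 ± 4.37 TPM (1.63, adjusted p = 0.00106). TIMP4, the remaining inhibitor of the family, was called higher in U118 and not in U87. It was at 134, 135 and 138 TPM in U87 control and 72.3, 75.8 and 74.5 TPM in U87 aggregation cells (-0.86, adjusted p = 0.000172, under the fold limit). In U118 it rose from 7.57, 8.40 and 6.37 TPM to 40.7, 28.99 and 32.8 TPM (2.05, adjusted p = 0.000131). TIMP1 and TIMP3 lie within the introns of synapsin genes on the opposite strand, SYN1 at no more than 0.0837 TPM and SYN3 at no more than 0.666 TPM. TIMP4 lies within SYN2, also on the opposite strand, and its exons share 170 bases with SYN2, at 0.0361 to 2.77 TPM. Use of strand in the counting is not given, so that reads of this shared stretch cannot be told apart.

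Of 8 further inhibitors and inducers of MMPs, 5 were tested in U87, of which A2M, TFPI2 and SPOCK1 were called higher, and 4 in U118, of which TFPI2 was called higher. Over all genes, 3.03% were called higher in U87 and 8.64% in U118. A2M, listed at 0 in all U87 control libraries, passed the filter only through its aggregation libraries, so that a rise was the only call it could give. TFPI2, a secreted inhibitor of plasmin that thereby limits proMMP activation, rose from 25.5 ± 4.17 to 146 ± 7.32 TPM in U87 (2.48, adjusted p = 6.23e-05) and from 476 ± 26.5 to 1215 ± 204 TPM in U118 (1.34, adjusted p = 0.00111). Of 8 genes that activate proMMPs or belong to the plasmin system, 4 were tested in each line. PLAU, the urokinase, was called higher in U87, from 384 ± 13.3 to 819.8 ± 68.6 TPM (1.09, adjusted p = 0.000136), and 0 of the 4 were called in U118, against 35.3% of all genes.

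Of 16 genes for proteins that MMPs cut, 13 were tested in U87 and 15 in U118. In U87, COL1A1, COL5A1 and FN1 were called higher, against 3.03% of all genes called higher, and SDC1 was among those called lower. In U118, SPP1 was called higher and 10 were called lower (COL1A1, COL1A2, COL4A1, COL4A2, FN1, ELN, TNC, VCAN, DCN and SDC4), with a median of -1.45 against -0.52 over all genes, of which 26.6% were called lower. COL4A1, ELN and DCN passed the U118 filter only through their control libraries, so that a fall was the only call they could give. FN1, fibronectin, went from 73.4 ± 4.87 to 889 ± 95.4 TPM in U87 (3.58, adjusted p = 8.59e-06) and from 3314 ± 562 to 165 ± 146 TPM in U118 (-4.65, adjusted p = 9.28e-05). Its direction in each line was that of MMP14.

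The genes whose pattern over the 4 group means was nearest to 3 of the members were found by the root mean square difference of mean log2(TPM + 1), after each gene's own mean was removed, among 16382 genes. For MMP1 they were FOXF2 (0.154), CDKN2C (0.220), COLEC12 (0.252) and LPAR1 (0.270), and 1 further gene is not reported. All 4 were at 159 to 217 TPM in U118 control cells and at no more than 0.147 TPM in the other group means. For MMP2 they were PIK3CD-AS2 (0.0546), MYG1-AS1 (0.0778), ZSCAN12P1 (0.0967), C16orf89 (0.102) and AHNAK2 (0.138). Of these, PIK3CD-AS2, ZSCAN12P1 and C16orf89 were at no more than 5.52 TPM in any group mean, where the pseudocount shapes the pattern. For TIMP1 they were QRFP (0.0492), BTBD19 (0.0524), RNF39 (0.0814), MT2P1 (0.0840) and ENSG00000273155 (0.101), most of them at low TPM. With 4 group means, many genes can lie this near.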

How the data were processed

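The mRNA-seq of U87 and U118 control and aggregation cells was analysed from TPM values that the authors deposited, 1 table per cell line with 6 columns each. All 12 columns were mapped to samples by their names. The submitters' processing notes name FastQC 0.11.2, Trimmomatic 0.36, HISAT2 2.0, bedtools 2.26.0 and GRCh38, without roles, and the quantification tool, annotation and use of strand are not given in the sources used here. Of 58174 identifiers, 57392 had a symbol and 57836 are in GENCODE release 29, whose GRCh38 positions are printed. Promoters were taken from RefSeq (GRCh38.p14).

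Values were transformed to log2(TPM + 1), a pseudocount of 1, and analysed in R 4.3.3 using limma 3.58.1, by lmFit and by eBayes with its trend option. Genes entered a fit when 3 or more of its libraries reached 1 TPM, p-values were adjusted by Benjamini-Hochberg over these genes, and calls needed an adjusted p below 0.05 with a difference of 1 or more on the log2 scale. Each line was fitted alone with 6 libraries, and differences between the lines were fitted over 12. The fit was tested on simulated data before use. The main fits did not pair libraries by replicate number. For U87, the deviations of same-numbered libraries correlated at 0.0113, -0.0671 and -0.0399, whereas the highest value between different numbers was 0.0772. The same-numbered U118 libraries gave 0.139, 0.0512 and 0.0953, each above the highest U118 value between different numbers, 0.0397. Whether same-numbered U118 libraries belong together was not tested.

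The alternatives were a pseudocount of 0.1, no filter, a filter on the mean (10 TPM), median-ratio scaling, TPM without mitochondrially encoded genes, a block for the replicate number, eBayes with the trend switched off, no fold limit, limma's treat, and leaving out each library in turn. The genes named were all 10 members, the genes of fixed lists that were called in either line, 6 genes that flank the 11q22 cluster, and the 5 genes most like MMP1, MMP2 and TIMP1. The text gives values for part of these, and some results are not reported here. The members and lists were chosen with earlier results of these data known. Python 3.11.15, pandas 2.3.3 and matplotlib 3.10.9 were used for tables and figures.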

Additional observations from a re-analysis of the deposited data

Results flagged for a closer look

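For 10 MMP and TIMP genes the change from control to aggregation cells differed between U87 and U118 by limma's test of the interaction. The U118 change minus the U87 change on the log2 scale was -7.45 for MMP1, -6.00 for MMP3, -2.93 for TIMP3, -2.32 for MMP14 and -1.45 for TIMP1. Outside the members it was -2.49 for MMP16, -2.08 for MMP15, 1.04 for MMP19, 1.12 for MMP17 and 2.91 for TIMP4. The adjusted p-values ran from 3.6e-09 for MMP3 to 0.0254 for MMP19. The share of all genes called in this test was 30.5%. The part played in these differences by the nearness of the U118 aggregation libraries to the U87 libraries was not tested.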

How the results depend on the processing

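Of 39 differences of single members, 28 kept their direction and their side of the thresholds in every scored alternative that could be run. So did 620 of 639 alternative values. These scores cover neither the fit without a fold limit nor treat, for which only counts of members called were taken. MMP1, MMP3 and TIMP3 in U118 and MMP14 and TIMP1 in U87 were among the 28. Under median-ratio scaling the sign turned for TIMP1 in U118 (0.28) and for MMP1 between the aggregation cells of the lines (-0.064), neither called, MMP2 in U87 (1.10) and TIMP1 between the aggregation cells (-1.03) passed the limits, and TIMP2 in U118 did not (-0.96). The count of members called higher in U118 was 0 with a mean of at least 10 TPM and 0 with treat, against 1, MMP7. With treat, 1 member was called higher in U87, against 3 in the main fit. MMP14 and TIMP1 thus did not both keep their call under treat, and 0 members were called lower in U118 than in U87 control cells. Without a fold limit, 4 were called lower in U118 than in U87 aggregation cells. Without single libraries, the members called numbered 2 to 3 higher and 0 to 1 lower in U87 (TIMP2, without aggregation replicate 2) and 0 to 1 higher and 3 to 4 lower in U118. In both lines MMP7 could not be tested when any aggregation library was left out, since too few libraries then reached 1 TPM. Leaving out single libraries also turned the sign of differences that were not called: MMP7 in the interaction (-0.032 to 0.34) and between aggregation cells (-0.21 to 0.12), MMP1 between aggregation cells (-0.37 to 0.33) and TIMP2 between control cells (-0.34 to 0.44). With the replicate block, 414 genes were called higher and 1040 lower in U87 and 1363 and 4218 in U118, against 419, 1078, 1341 and 4134, and no call on a member changed. The causes of these changes were not tested. TPM sets no detection limit, so that values under 1 TPM (MMP7, MMP9, MMP10 and, in U87, TIMP3) carry an unknown counting error.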

Other observations

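Proteases related to the MMPs were counted as well. Of 8 ADAM sheddases, which release membrane proteins and of which several are blocked by TIMP3, 7 were tested in U87 and 0 were called by limma (adjusted p from 0.0994 to 0.97). In U118, ADAM19 was called higher (2.34, adjusted p = 4.52e-05) and ADAM9 (-1.40, adjusted p = 0.000723) and ADAM17 (-1.42, adjusted p = 0.00236) lower, 3 of 6 tested, against 35.3% of all genes called. ADAM19 passed the U118 filter only through its aggregation libraries, so that a rise was the only call it could give. ADAM17 went from 34.8 ± 6.63 to 12.5 ± 3.99 TPM (SD, n = 3) in U118 and was at 7.40 ± 2.45 and 6.10 ± 0.365 TPM in U87. Of 19 ADAMTS genes, ADAMTS1, ADAMTS5 and ADAMTS14 were called higher in U87, 3 of 5 tested, against 10.8% of all genes called. In U118, ADAMTS2 and ADAMTS5 were called higher and ADAMTS1 and ADAMTS15 lower, 4 of 9, against 35.3% of all genes called. ADAMTS5 and ADAMTS14 in U87 and ADAMTS2 in U118 passed the filter only through their aggregation libraries, and ADAMTS15 in U118 only through its control libraries, so that each could be called in 1 direction only. ADAMTS1, which cleaves proteoglycans such as versican, had opposite directions in the lines, from 27.1 ± 4.92 to 84.7 ± 6.86 TPM in U87 and from 210 ± 25.9 to 43.1 ± 16.6 TPM in U118 (interaction -3.93, adjusted p = 1.13e-06).

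Of 18 transcription factors known to act on MMP promoters, 17 were tested in each line. ETV5 was called lower in U87 (-1.16, adjusted p = 0.00062), the 1 call of 17, against 10.8% of all genes called. In U118, ETV4 was called higher (2.256, adjusted p = 8.13e-05) and ETS1 (-1.10, adjusted p = 0.00268), ETV1 (-1.10, adjusted p = 0.0433) and SP1 (-1.17, adjusted p = 0.00285) lower. These were 1 of 17 higher and 3 of 17 lower, against 8.64% and 26.6% of all genes. Neither share was above that of all genes. FOSL1, an AP-1 subunit, was the most abundant of these factors in each group mean, at 760.5 ± 91.8 TPM in U87 control, 381 ± 45.9 in U87 aggregation, 936 ± 394 in U118 control and 801 ± 287 in U118 aggregation cells. It was named after its values were seen and was not called in either line (-0.99, adjusted p = 0.000949, and -0.20, adjusted p = 0.647).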
